A study of Mus musculus with 24 samples.

Results

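The cytosolic ribosome of the mouse hypothalamus is described here through the mRNA levels of its protein genes. Members were all listed symbols of the form Rpl or Rps and a number, with or without a paralog ending, together with Rplp0, Rplp1, Rplp2 and Rpsa, pseudogene names left out, whose mean over all libraries was at least 1 FPKM. FPKM counts fragments relative to transcript length and to the size of the library. The name pattern matched 83 symbols and 82 of them passed the level. They were 49 members of the large subunit and 33 of the small subunit, among 13806 genes at that level and 18777 listed symbols. The symbol just outside was Rpl3l, a muscle paralog of Rpl3, with a mean of 0.110 FPKM, and the member just inside was Rps29 with a mean of 1.79 FPKM.

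Total RNA of the hypothalamus was sequenced from C57BL6 mice aged 15 months. Feeding of the 4 diets began at 12 weeks. The diets shared their energy density and their protein, carbohydrate and fat content and differed in leucine, isoleucine and valine, the branched-chain amino acids (BCAA), given at 20, 50, 100 or 200% of the standard content. Their names are BCAA20, BCAA50, BCAA100 and BCAA200, and the BCAA100 libraries carry Chow in their titles. Each diet had 3 females and 3 males, so 24 libraries formed 8 groups of diet and sex, replicates 1 to 3 being females and 4 to 6 males. All BCAA100 libraries were on lane 2 and all others on lane 1. The BCAA100 titles also carry a lower and separate series of numbers, whose meaning the labels do not state. Lane, number series and BCAA100 diet cannot be told apart.

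The cytosolic ribosome joins a small subunit, which reads the mRNA, and a large subunit, which makes the peptide bond, and each of its proteins is needed in step with the others. Leucine is a signal that activates the kinase complex mTORC1, and mTORC1 raises the translation of ribosomal protein mRNAs that begin with a 5′ terminal oligopyrimidine tract (TOP), a C followed by pyrimidines. That control acts on translation, which mRNA levels do not measure. In neurons ribosomal proteins are made in the cell body and also in processes.

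Start-site sequences are shown because the TOP tract is the feature that links these mRNAs to amino acid supply. RefSeq promoter sequences on build GRCm38.p6 were matched for 60 of the 82 members. Each window below holds 15 bases before the annotated start and 15 from it, read 5′ to 3′ on the gene's strand, and capitals mark the pyrimidine run that begins with C exactly at the annotated start. The first 6 genes carry such a run of at least 5 bases, and the last 4, among them the highest members of each subunit with a matched window, do not.
Rps6 (chr4:86857353-86857382, minus strand): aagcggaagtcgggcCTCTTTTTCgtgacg
Rps18 (chr17:33955651-33955680, minus strand): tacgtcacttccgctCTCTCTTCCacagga
Rps21 (chr2:180257364-180257393, plus strand): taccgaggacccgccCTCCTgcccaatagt
Rpl15 (chr14:18270972-18271001, minus strand): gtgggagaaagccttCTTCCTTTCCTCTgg
Rpl38 (chr11:114668565-114668594, plus strand): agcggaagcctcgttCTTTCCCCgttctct
Rplp2 (chr7:141447636-141447665, plus strand): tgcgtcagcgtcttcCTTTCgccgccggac
Rpl4 (chr9:64173372-64173401, plus strand): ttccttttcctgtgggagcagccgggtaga
Rps15 (chr10:80292416-80292445, plus strand): cccggcagagctcgcgataactgcgcaagc
Rplp0 (chr5:115559452-115559481, plus strand): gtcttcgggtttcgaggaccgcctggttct
Rpl22l1 (chr3:28805493-28805522, plus strand): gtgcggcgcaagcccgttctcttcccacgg

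A C followed by at least 4 pyrimidines stood at the annotated start of 12 of the 60 members (20%) and of 2.49% of all 27025 RefSeq promoters. Within 5 bases of the start on the transcribed strand it was found in 28 members (46.7%), against 18.5% of all promoters. Rpl22l1 holds such a run just past its annotated start, so the match depends on where the annotation places the start. In the whole window of 250 bases before to 50 after the start, searched on both strands, the ETS core CCGGAA was present in 30 members (50%), against 15.2% of all promoters. The YY1 core AAGATGG was present in 15% of members against 6.48% of all promoters, the TATA core TATAAA in 10% against 14.2%, and the E-box CACGTG in 8.33% against 7.24%. These matches describe letters in a window and not binding.

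The label of the tissue was checked first. Of the hypothalamic genes, Pmch (melanin-concentrating hormone) lay between 1.92 and 548 FPKM with a median of 189. Avp (vasopressin) lay between 0.658 and 262 with a median of 60.3, whereas Hcrt (orexin) was listed at 0 in 1 library. Other markers of the list were uneven too. Npy had a median of 43.0 FPKM and Agrp was at most 0.865 FPKM. Nr5a1 was listed at 0 in 4 libraries and Hmx2 in 5. Slc17a7, a transporter of cortical glutamate neurons, was above 100 FPKM in most libraries. It was below 20 in BCAA50 female replicate 1, BCAA100 male replicate 5 and BCAA100 male replicate 6. The library labelled BCAA20 male replicate 6 had 154 FPKM of the female-specific Xist and 0.002 FPKM on average of Y-linked genes. These 4 libraries are called doubted, and counts are also given without them. The mark rests on low Slc17a7 or on sex-linked genes and not on hypothalamic genes. Low Slc17a7 alone does not show that hypothalamus was missing. The score of hypothalamic nuclei markers, a centred mean on the log scale, was highest in BCAA100 male replicate 5, at 1.51. BCAA50 female replicate 1 came next at 0.93, so the highest scores were in doubted libraries. BCAA100 male replicate 6, also doubted, was lowest at -2.43. BCAA200 male replicate 6 and BCAA50 female replicate 2, not doubted, had -1.25 and -0.98. Depth per library is unknown because the values are FPKM, and the part of dissection in the results was not tested.

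Member levels spanned a 182-fold range. Highest in the large subunit were Rplp1 (acidic stalk protein, which with Rplp0 and Rplp2 recruits elongation factors) at 325.7 ± 40.8 FPKM (SD, n = 24), Rpl8 at 223 ± 28.4, Rpl4 at 179.9 ± 13.3, Rpl41 at 122 ± 16.9 and Rpl32 at 54.3 ± 5.75. Among the highest in the small subunit were Rps15 at 233 ± 31.0, Rps21 at 111 ± 21.8, Rps3 (a protein of the mRNA entry channel) at 98.6 ± 8.90 and Rps12l1 at 72.9 ± 7.90. At the low end were Rps29 at 1.79 ± 0.606 FPKM and Rps19, a gene mutated in Diamond-Blackfan anaemia in humans, at 3.94 ± 0.489. Proteins that a ribosome mostly holds in equal copies thus had listed mRNA levels far apart. The sum over members was between 0.880% and 1.17% of the FPKM sum of a library.

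Near-identical pseudogene rows were often high, beside low members and beside some high ones. Matching each coding sequence to annotated pseudogene transcripts (at least 90% identity over at least 80% of the coding bases) gave 964 copies, of which 400 were listed with a value. Their mean FPKM summed to 4.89 times that of the 80 coding members, and for 64 of these 80 the listed copies summed above the member itself. Rps29 had 5 listed copies with a sum of 1022 FPKM, and 1 of them, identical over the whole coding sequence, was listed at 1007 FPKM. For Rpl38, which shares all of its coding 50-mers with other genes, 3 listed copies summed to 413 FPKM against its own 6.61. Rpl41, among the highest members, had 3 listed copies that summed to 281 FPKM. Rps3, Rpl8 and Rplp2 had no annotated copy by this match. Summed with their listed copies, the coding members spanned a 215-fold range, so the sums were no closer together than the members.

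The share of a coding sequence that recurs in transcripts of other genes ran beside these levels. The 45 coding members with at least 90% of their 50-mers shared had a median level of 12.6 FPKM, between 1.79 and 122. The 12 members with less than 50% shared had a median level of 85.3 FPKM, between 9.60 and 233. Across the 80 coding members Spearman's rho between mean level and shared share was -0.47 and that between mean level and number of copies was -0.31. These are descriptions across genes, which are not independent replicates and share the same libraries. Reads that fit a member and its copies equally well cannot be assigned from the sequence alone, so the level of a member with many shared 50-mers is uncertain.

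**Figure D1:**
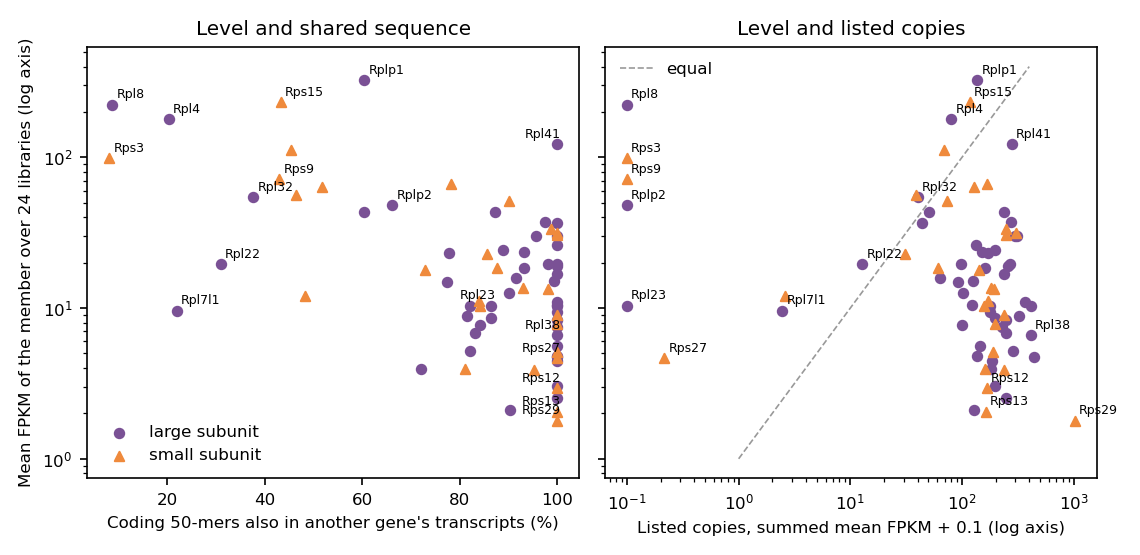
Mean FPKM of 77 coding members over 24 libraries (log axis) against the share of coding 50-mers also found in transcripts of another gene (left, %) and against the summed mean FPKM of listed pseudogene copies (right, log axis, 0.1 added); each point is 1 gene and the dashed line marks equality. Rps29 sits lowest at 1.79 FPKM with all 50-mers shared, and Rplp1 highest at 325.7 FPKM.

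Paralog pairs differed in which gene was higher. Rpl7l1 averaged 9.60 FPKM against 14.9 for Rpl7, Rpl22l1 averaged 7.68 against 19.5 for Rpl22, and both paralogs were below their parent in all 24 libraries. Rpl36al, an autosomal gene that encodes nearly the same protein as X-linked Rpl36a, was above it in all 24 libraries, at 36.7 against 4.80 FPKM. Rps27l, which is a target of p53 in human cells, was above Rps27 in 22 of 24 libraries, at 12.0 against 4.65 FPKM. The annotated pseudogene Rps12l1, 100% identical to Rps12 over its coding sequence, had 72.9 FPKM against 2.94 for Rps12, with a ratio between 18.8 and 34.1 over the libraries. Rps4l, also annotated as a pseudogene, stayed below X-linked Rps4x in all 24 libraries, at 23.8 against 51.2 FPKM. Rpl36a shares all of its coding 50-mers with other genes and its listed copies summed to 137 FPKM, so the order of its pair rests on how reads were assigned. The same holds for Rpl22l1, which reached 107 FPKM when summed with its listed copy, against 32.2 for Rpl22 with its copies. Rps27 shares all of its coding 50-mers with other genes, and its retrogene Rps27rt averaged between 174 and 183 FPKM over the diets.

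**Figure D2:**
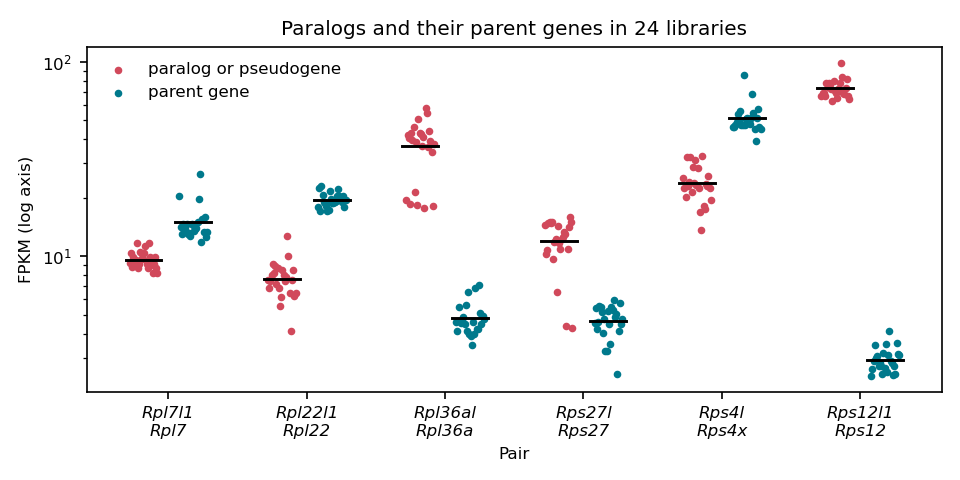
FPKM (log axis) of 6 paralogs or pseudogenes (red, left of each pair) and their parent genes (blue, right) in each of 24 libraries, with black bars at the means. Rps12l1 lies 18.8 to 34.1 times above Rps12, and Rpl36al shows a lower cluster of 6 libraries.

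Some members took a distinct level in 1 to 6 libraries. Sorted over the libraries, the largest step between neighbouring values had a median of 0.20 on the log2(FPKM + 0.5) scale over the 82 members, and 6 members had a step of at least 0.5, a limit set after the values were seen. Rpl36al was between 17.6 and 21.5 FPKM in 6 libraries, from all 4 diets, and between 34.5 and 57.8 in the other 18. Rpl6 was between 49.8 and 53.5 FPKM in BCAA20 male replicate 4, BCAA50 female replicate 3 and BCAA100 female replicate 1, and between 16.5 and 25.6 in the other 21.

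In 3 further members with such a step the few libraries that stood apart were below the rest. Rps27l was between 4.29 and 6.51 FPKM in BCAA50 male replicate 5, BCAA200 female replicate 1 and BCAA200 male replicate 6, and between 9.69 and 15.95 elsewhere. Rps14 was at 17.8 FPKM in BCAA200 female replicate 2 and 24.7 in BCAA50 female replicate 3, and between 43.6 and 82.9 elsewhere. Rpl14 was at 8.40 FPKM in BCAA50 male replicate 4 and between 19.0 and 32.9 elsewhere. What sets these libraries apart was not tested.

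Most other members varied little, and in part together. The coefficient of variation over 24 libraries had a median of 13.8% and ran from 6.32% to 47.0%. Pearson's r of a member with the mean of the other members of its subunit, on the log2(FPKM + 0.5) scale over 24 libraries, had a median of 0.57 in the large and 0.51 in the small subunit. Most like the rest of the large subunit were Rpl19 (r = 0.92), Rpl26 (0.92) and Rpl4 (0.86), and of the small subunit Rps20 (0.87) and Rps12l1 (0.87). Least like the rest were Rplp0 (0.015), Rpl6 (0.12) and Rpl34 (0.18), and Rps25 (0.029), Rps27l (0.17) and Rps2 (0.22). Without BCAA100 male replicate 5 the medians were 0.49 in the large and 0.45 in the small subunit. These correlations describe libraries that share their preparation and scaling.

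That library stood apart from all others. BCAA100 male replicate 5 held the highest value of 47 of the 82 members (57.3%), where it held the highest value of 17.6% of all genes tested. Its subunit score, the mean over members of log2(FPKM + 0.5) centred on each member's mean over libraries, was 0.36 for the large and 0.38 for the small subunit. The next highest were 0.16 for the large subunit in BCAA50 male replicate 5 and 0.15 for the small subunit in BCAA200 male replicate 4. The same library had the highest summed hypothalamic nuclei markers (1254 FPKM, the others between 55.8 and 1127) and 197 FPKM of summed cortex and hippocampus markers, where the others lay between 117 and 931. BCAA200 female replicate 2 held the highest value of 8 of the 82 members (9.76%) and of 7.87% of all genes tested. It held the lowest value of 16 members and of 17.2% of all genes tested.

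**Figure D3:**
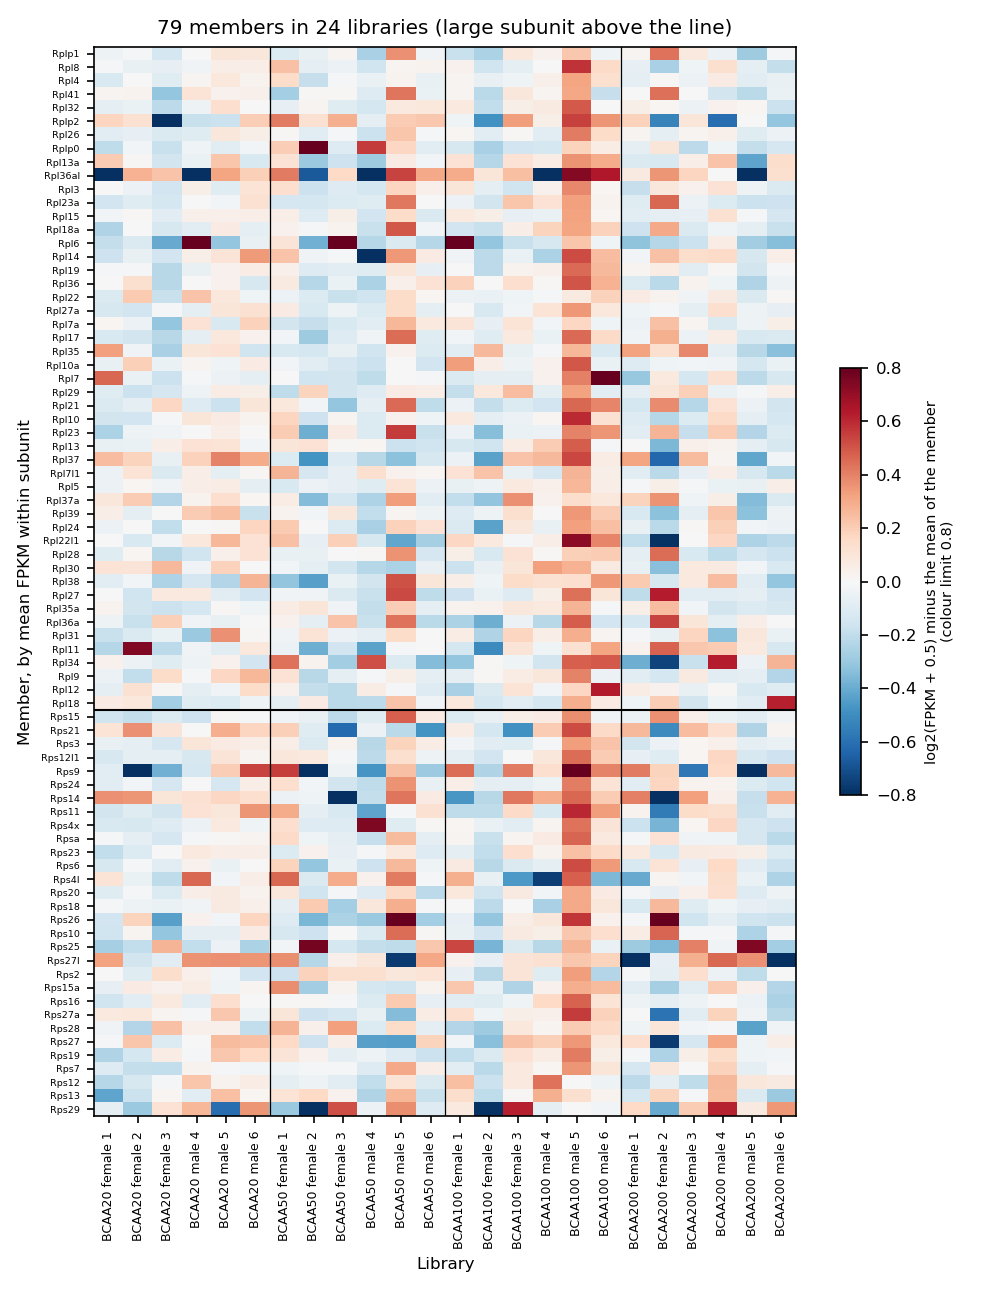
Heat map of log2(FPKM + 0.5) minus each member's mean over 24 libraries, with 79 members in rows by falling mean FPKM within the large (above the line) and small subunit and libraries in columns by diet and replicate. BCAA100 male replicate 5 is the red column, with the highest value of 47 of all 82 members, and Rpl36al, Rpl6 and Rps27l show single cells or few cells far from their row.

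Whether BCAA content went with member levels was asked first within lane 1. No member passed at an adjusted p of 0.05 in limma, with p-values adjusted over all 13806 genes, for BCAA200 against BCAA20, BCAA200 against BCAA50, BCAA50 against BCAA20 or the slope over these 3 diets. Of all genes tested, 0.0% passed in each of these 4 comparisons. At an unadjusted p of 0.05, 0 of 82 members passed for BCAA200 against BCAA20 (2.89% of all genes), 1 for BCAA200 against BCAA50 (2.52%), 4 for BCAA50 against BCAA20 (2.68%) and 0 for the slope (2.83%).

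The subunits as wholes stayed near 0 between the ends of the dose range. The median log2 change in BCAA200 against BCAA20 was 0.0063 over the large and -0.019 over the small subunit, and -0.014 over all genes tested. Without the 4 doubted libraries it was 0.0083 over the large and -0.017 over the small subunit. The large subunit score averaged -0.013 ± 0.062 in BCAA20, -0.022 ± 0.112 in BCAA50, 0.070 ± 0.170 in BCAA100 and -0.035 ± 0.065 in BCAA200 (SD, n = 6 each). The small subunit score averaged -0.0044 ± 0.065 in BCAA20, -0.019 ± 0.111 in BCAA50, 0.059 ± 0.185 in BCAA100 and -0.036 ± 0.101 in BCAA200 (SD, n = 6 each). The BCAA100 means of both scores were the highest of the 4 diets, and without BCAA100 male replicate 5 they were 0.011 ± 0.101 for the large and -0.0043 ± 0.114 for the small subunit (SD, n = 5).

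**Figure D4:**
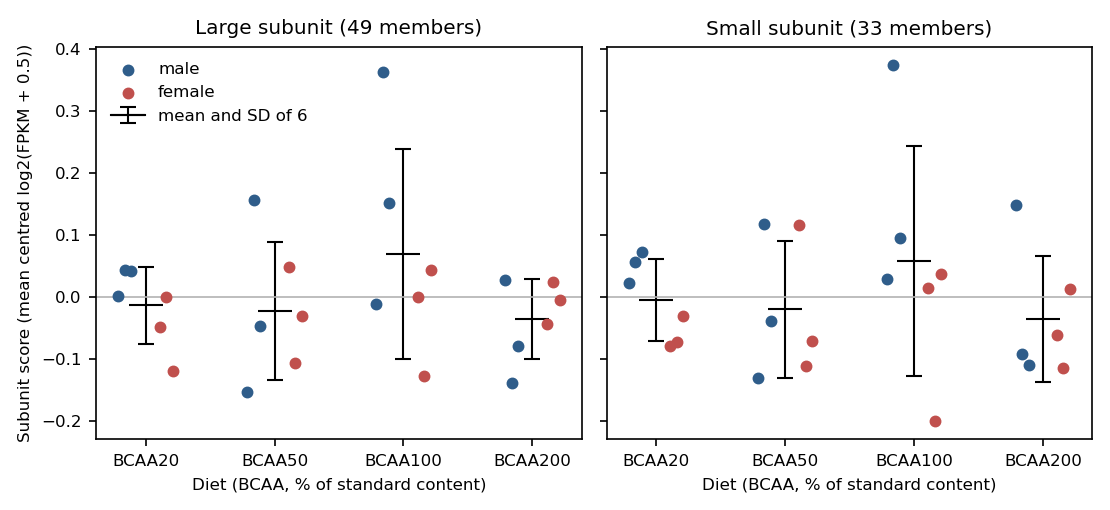
Subunit score of each library (mean over members of centred log2(FPKM + 0.5)) by diet, for the large subunit (left, 49 members) and small subunit (right, 33 members), males in blue and females in red, with the mean and SD of 6 libraries in black. The 4 diets overlap, and 1 male library of BCAA100 lies highest in both panels, at 0.36 and 0.38.

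The most abundant members showed the same overlap. Rplp1 lay at 294, 323 and 346 FPKM (lowest, median and highest) in BCAA20, at 269.8, 314 and 417 in BCAA50, at 271, 324 and 376 in BCAA100 and at 265, 325 and 436 in BCAA200. Every diet's range held the medians of the others. Rps15 lay at 203, 211 and 233 FPKM in BCAA20, at 200.2, 225 and 323 in BCAA50, at 215, 233 and 299.7 in BCAA100 and at 217, 226 and 299 in BCAA200. Rpl4 lay at 165, 181 and 190.0 FPKM in BCAA20, at 157, 175 and 198 in BCAA50, at 172, 183 and 223 in BCAA100 and at 169, 173 and 188 in BCAA200. In both genes the ranges of all diets overlapped.

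Among members with other roles, Rps6, Rpl5 and Rpsa differed as little. Rps6, the ribosomal substrate of S6 kinase downstream of mTORC1, lay at 27.6, 29.6 and 31.1 FPKM in BCAA20, at 24.3, 29.4 and 36.4 in BCAA50, at 25.9, 30.3 and 43.7 in BCAA100 and at 26.9, 28.8 and 33.9 in BCAA200. Rpl5, which with Rpl11 and 5S RNA forms a particle that restrains Mdm2, lay at 8.83, 9.33 and 9.74 FPKM in BCAA20, at 8.56, 8.97 and 10.1 in BCAA50, at 8.95, 9.68 and 11.3 in BCAA100 and at 8.97, 9.22 and 9.73 in BCAA200. The medians of both genes fell inside the range of every diet. Rpsa, also known as a laminin receptor, had medians between 31.9 FPKM in BCAA50 and 34.1 in BCAA100. Rpl11 differed more, averaging 4.91 FPKM in BCAA200 against 3.84 in BCAA50 (log2 change 0.32 ± 0.16, SE, adjusted p = 0.99994 in limma).

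The lowest p-values in lane 1 belonged to a few single genes. Rpl30 lay at 5.63, 6.27 and 6.68 FPKM in BCAA50, against 6.67, 7.36 and 8.25 in BCAA20. The 2 groups met only at the highest BCAA50 and the lowest BCAA20 library. Its log2 change of -0.23 ± 0.082 (SE) had an unadjusted p of 0.0098 and an adjusted p of 0.99996 in limma.

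Rpl37 averaged 8.52 FPKM in BCAA50 against 11.7 in BCAA20, a log2 change of -0.44 ± 0.15 (SE, limma unadjusted p = 0.0099). Rps21 lay at 70.9, 98.0 and 125 FPKM in BCAA50, against 109, 120 and 141 in BCAA20, with overlapping ranges (log2 change -0.39 ± 0.15, limma unadjusted p = 0.020). For both genes the adjusted p was 0.99996 in limma. Summed with their listed copies, an alternative chosen after seeing the data, Rpl30 had a log2 change of 0.0014 and Rpl37 of 0.00244 in BCAA50 against BCAA20, both turned in direction.

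In BCAA200 against BCAA50 the lowest p-values belonged to stalk proteins. Rplp0, the scaffold of the stalk, lay at 36.9, 39.7 and 45.7 FPKM in BCAA200, against 39.8, 48.5 and 76.1 in BCAA50. The 2 highest BCAA50 values, 76.1 in female replicate 2 and 63.1 in male replicate 4, were above every other library of the study. Its log2 change was -0.35 ± 0.12 (SE) with an adjusted p of 0.99994 in limma, and it was -0.22 without BCAA50 female replicate 2. Rplp2 lay at 30.4, 42.1 and 53.1 FPKM in BCAA200, against 44.3, 54.0 and 62.4 in BCAA50, a log2 change of -0.39 ± 0.19 (SE) with the same adjusted p in limma. Rplp1, the partner of Rplp2, did not share the difference, with medians of 325 FPKM in BCAA200 and 314 in BCAA50.

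For BCAA200 against BCAA20 the lowest p-values belonged to Rpl22l1 and Rpl30 in the large subunit and to Rps27l and Rps27a in the small subunit, none under an unadjusted 0.05 in limma. Rpl22l1 averaged 6.56 FPKM in BCAA200 against 7.86 in BCAA20 (log2 change -0.27 ± 0.13, SE), and Rps27a, whose product is fused to ubiquitin, averaged 7.19 against 8.13 (-0.18 ± 0.11). Rps27l averaged 10.8 FPKM in BCAA200 against 13.3 in BCAA20 (-0.46 ± 0.28), and both of its low BCAA200 libraries are the ones named above. All 4 had an adjusted p of 0.99965 in limma. Without BCAA200 female replicate 2 the changes were -0.15 for Rpl22l1, -0.11 for Rpl30 and -0.091 for Rps27a, and without BCAA200 male replicate 6 that of Rps27l was -0.17. The same genes had the lowest p-values within each subunit for the slope per doubling of BCAA content, between -0.14 ± 0.084 for Rps27l and -0.044 ± 0.024 for Rpl30 (SE).

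The comparisons with BCAA100 share its 6 libraries and its lane, and most members were below them. The median log2 change in BCAA20 against BCAA100 was -0.091 over the large and -0.095 over the small subunit, and -0.035 over all genes tested. In BCAA50 against BCAA100 the medians were -0.089 and -0.079, against -0.043 over all genes. In BCAA200 against BCAA100 they were -0.10 and -0.088, against -0.051 over all genes. Below 0 were 67 of 82 members in BCAA20 (60.0% of all genes), 70 in BCAA50 (61.9%) and 73 in BCAA200 (62.6%).

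No member passed an adjusted p of 0.05 in limma in any of the 3, where 0.0% of all genes passed in BCAA20 and in BCAA50 and 0.0145% in BCAA200 against BCAA100. At an unadjusted p of 0.05, 2 members passed in BCAA20 against BCAA100 (7.09% of all genes), both below 0 (4.15% of all genes). In BCAA50 against BCAA100 it was 9 members (7.65% of all genes), 8 of them below 0 (4.87%). In BCAA200 against BCAA100 it was 10 members (11.7% of all genes), all below 0 (7.52%).

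BCAA100 male replicate 5 had a large share in these medians. Without it the median over both subunits was -0.037 in BCAA20, -0.041 in BCAA50 and -0.053 in BCAA200 against BCAA100. In that fit 1, 4 and 4 members passed an unadjusted p of 0.05 in limma. Its median and shares over all genes are not given here, so these member values are not set against other genes. Leaving out BCAA50 male replicate 4 moved the medians in BCAA50 against BCAA100 to -0.052 over the large and -0.050 over the small subunit, and leaving out BCAA50 male replicate 5 moved the small subunit to -0.12. Without the 4 doubted libraries only BCAA100 male replicate 4 stands for the BCAA100 males. The medians were then 0.0041, -0.037 and -0.019, with 39, 50 and 46 members below 0 in BCAA20, BCAA50 and BCAA200. The shares of all genes below 0 without these libraries are not given here. Centring the libraries by median-of-ratios scaling, which set the median of all genes to between -0.0022 and 0.0045, left member medians of -0.053, -0.035 and -0.046.

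Markers of other tissue moved beside the members. Of 14 cortex and hippocampus markers, 12, 12 and 11 were above 0 in BCAA20, BCAA50 and BCAA200 against BCAA100, with medians of 0.57, 0.55 and 0.72 on the log2 scale. Their sum lay between 505 and 691 FPKM in BCAA20, between 182 and 796 in BCAA50 and between 441 and 931 in BCAA200, against 117 to 599 in BCAA100. Of 16 oligodendrocyte and myelin markers, 16, 15 and 16 were below 0, with medians of -0.26, -0.092 and -0.33. Their sum lay between 1482 and 2017 FPKM in BCAA20, between 1230.1 and 3001 in BCAA50 and between 797 and 2009 in BCAA200, against 1415 to 4225 in BCAA100. None of these markers passed an adjusted p of 0.05 in limma. The part of tissue composition in the member medians was not tested, and in bulk RNA fewer cells of a type and less RNA per cell cannot be told apart.

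**Figure D5:**
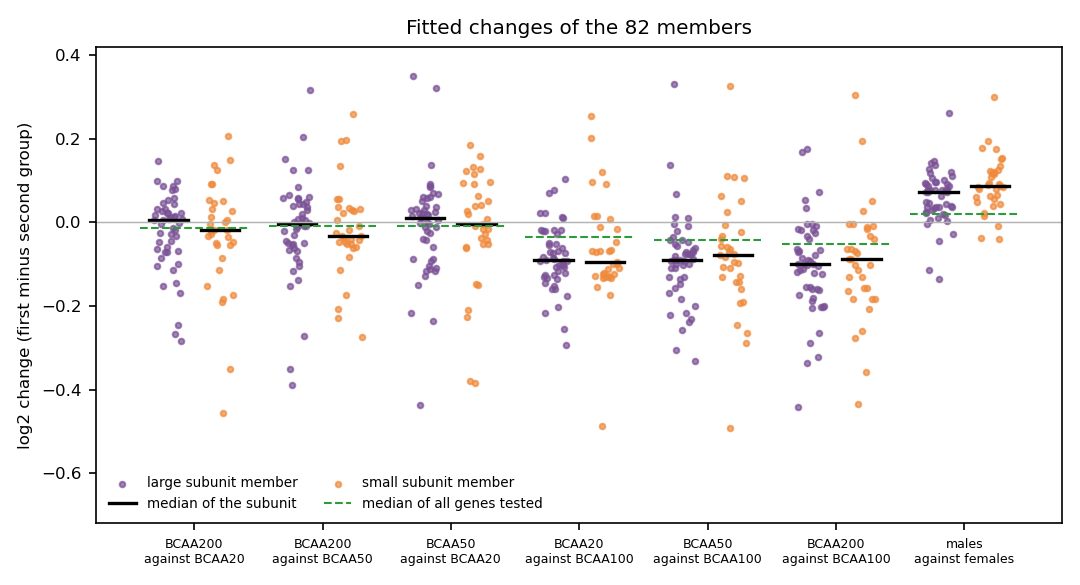
Fitted log2 change of each member (first minus second group, log2(FPKM + 0.5) scale) in 6 diet comparisons and in males against females, large subunit in purple and small subunit in orange, with black bars at the subunit medians and green dashed lines at the median of all genes tested. The clouds centre on 0 within lane 1, near -0.09 against BCAA100 and near 0.08 in males against females.

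Single members led these comparisons. Rpl22l1, the paralog of Rpl22 that can take its place, lay at 4.14, 6.47 and 8.50 FPKM in BCAA200, against 7.43, 8.24 and 12.6 in BCAA100. The highest BCAA200 library was above 4 of the 6 BCAA100 libraries. Its log2 change of -0.44 ± 0.13 (SE) had the lowest p among members in that comparison, adjusted p = 0.22 in limma. The highest Rpl22l1 values of BCAA100 were 12.6 FPKM in male replicate 5 and 9.99 in male replicate 6, both doubted. The other BCAA100 libraries lay between 7.43 and 8.49. Rpl22 itself had medians of 19.7 FPKM in BCAA200 and 19.1 in BCAA100.

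Rpl36 averaged 19.0, 18.8 and 18.1 FPKM in BCAA20, BCAA50 and BCAA200, against 22.3 in BCAA100. Its log2 change was -0.29 ± 0.092 (SE) in BCAA200 and -0.22 ± 0.092 in BCAA20, with adjusted p of 0.25 and 0.67 in limma. Rpl10a averaged 14.0 FPKM in BCAA50 against 16.6 in BCAA100 (-0.23 ± 0.086, adjusted p = 0.55 in limma), a change of -0.15 without BCAA100 male replicate 5. Rps27a averaged 7.30 FPKM in BCAA50 and 7.19 in BCAA200, against 8.79 in BCAA100. Rplp0 went the other way in BCAA50, at 52.7 against 40.8 FPKM in BCAA100 (0.33 ± 0.12, adjusted p = 0.56 in limma), a change of 0.20 without BCAA50 female replicate 2.

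Males were set against females over all diets, with the library labelled BCAA20 male replicate 6 among the males as its label has it, first for the 4 X-linked members, whose second copy is silenced in females unless it escapes. Rps4x averaged 54.8 FPKM in males against 47.7 in females, a log2 change of 0.18 ± 0.084 (SE) with an adjusted p of 0.94 in limma. BCAA50 male replicate 4 was at 85.2 FPKM, with the next highest library at 68.5, and without it the log2 change was 0.11. Rpl10, which joins the large subunit late, averaged 11.06 against 10.02 FPKM (0.13 ± 0.063, adjusted p = 0.94 in limma), a change of 0.084 without BCAA100 male replicate 5. Rpl39, a protein of the exit tunnel, averaged 8.80 against 8.26 FPKM (0.077 ± 0.069), and Rpl36a averaged 4.81 against 4.80 FPKM (0.0052 ± 0.10), both without a call in limma.

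Across all members, 74 of 82 were above 0 in males against females (58.8% of all genes), with medians of 0.073 over the large and 0.088 over the small subunit and 0.021 over all genes. None passed an adjusted p of 0.05 in limma (0.0652% of all genes). At an unadjusted p of 0.05 it was 6 members (4.27% of all genes), all above 0 (2.86%). They were Rps3, Rpl27a, Rpl34, Rps7, Rps12 and Rps4x. Rps3 lay at 84.2, 102 and 124 FPKM in males, against 88.7, 93.6 and 102 in females, a log2 change of 0.12 ± 0.047 (SE). Without BCAA100 male replicate 5 the medians were 0.042 over the large and 0.057 over the small subunit. Without BCAA50 male replicate 5 that of the large subunit was 0.048. Without the 4 doubted libraries only BCAA100 male replicate 4 stands for its group. The medians were then 0.024 over the large and 0.070 over the small subunit, with 64 members above 0. The share of all genes above 0 without these libraries is not given here. Beside this, all 16 oligodendrocyte and myelin markers were above 0 in males against females, with a median of 0.21, and 11 of 14 cortex and hippocampus markers were below 0, with a median of -0.23. Their part in the member values was not tested.

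No member differed over the 4 diets at an adjusted p of 0.05 in limma's F test (0.0% of all genes), and 6 members passed an unadjusted p of 0.05 (5.95% of all genes), among them Rpl22l1, Rpl30, Rpl36, Rplp0 and Rpl37. For the interaction of diet and sex no member passed the adjusted threshold in limma (0.0% of all genes), and Rpl22l1 and Rpl35 passed the unadjusted one (4.68% of all genes). The authors' deposited table gives Pearson's R of each gene with BCAA intake over the libraries. In the authors' deposited table no member had a P under 0.05, against 2.76% of all listed genes, and R ran from -0.35 for Rpl7l1 to 0.29 for Rpl18 with a median of -0.013 over members and -0.016 over all genes.

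Genes that work beside the ribosome had no call in any comparison at an adjusted p of 0.05 in limma. For BCAA200 against BCAA20 the median log2 change was -0.029 over 77 mitochondrial ribosomal proteins, -0.016 over 23 elongation factors and other TOP mRNAs, -0.035 over 31 initiation factors, -0.010 over 49 ribosome biogenesis factors and -0.028 over 19 genes of the mTORC1 control of ribosomal protein mRNAs. For BCAA200 against BCAA100 the same lists had medians of -0.071, -0.088, -0.077, -0.051 and -0.079, beside -0.10 and -0.088 for the subunits and -0.051 for all genes. The 332 pseudogene copies of members with a mean of at least 1 FPKM had a median of 0.00023 in BCAA200 against BCAA20, of -0.088 in BCAA200 against BCAA100 and of 0.081 in males against females. With each member summed with its listed copies, no member passed in limma in any of the 10 comparisons either, and the medians over both subunits were -0.091, -0.076 and -0.099 in BCAA20, BCAA50 and BCAA200 against BCAA100.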

How the data were processed

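Total RNA of 24 hypothalamus libraries, prepared stranded per the labels' protocols, was given as FPKM per gene symbol in 1 table that the authors deposited. The same table holds the authors' correlation score, Pearson's R with BCAA intake, and its p-value, per the file headers. TopHat2 2.0.14, StringTie 1.2.4 and GRCm38 are named in the submitters' processing notes. Depth is unknown, so no counting interval is given. Nothing in the labels names an RNA batch other than the lane.

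Members and gene lists were chosen with earlier results of these data known. Values were tested as log2(FPKM + 0.5) with limma 3.58.1 in R 4.3.3, over the 13806 genes whose mean reached 1 FPKM. The fit had 8 means of diet and sex, with a variance trend and robust moderation, 2-sided tests and Benjamini-Hochberg adjustment. Changes of low genes come out too small on this scale. P-values set a fitted change against the spread between these libraries. Diet changes are means of the female and male contrast. Genes were named by level, lowest p per subunit, paralogy, role or likeness to the subunit. Coding sequences came from GENCODE M21 and were matched to its pseudogene transcripts with blastn 2.17.0. The fit was tested on simulated data. Values of some members are not reported here, but all 82 enter the counts, medians and scores. Replicate numbers did not pair libraries.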

Additional observations from a re-analysis of the deposited data

Results flagged for a closer look

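Within each diet of 6 libraries, 52 values were compared for a library far from the others, covering summary measures and abundant members. At a limit that chance passes in about 1 in 20, 9 stood apart. The 52 values share libraries and members, so this count cannot show an excess over that rate. In BCAA100 male replicate 5 the members took 1.17% of the FPKM sum, Rpl8 had 331 FPKM, Rpl32 76.0 and Rps15 299.7, each the highest of BCAA100. In BCAA50 male replicate 5 Rpl41 had 162 FPKM and Rps15 323, and in BCAA200 female replicate 2 Rpl41 had 164 FPKM and Rps15 299, each the highest of its diet. Rpl41 was lowest in BCAA20 female replicate 3, at 97.2 FPKM. What sets these libraries apart was not tested.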

How the results depend on the processing

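No member passed an adjusted p of 0.05 in limma under any of 34 to 36 alternatives per comparison, and the lowest adjusted p of any member was 0.12, in BCAA200 against BCAA100. The alternatives were other pseudocounts (0.1 and 1), other filters (none and 5 FPKM), median-of-ratios and quantile scaling, array weights, other moderation, a fit on the compared groups, a replicate block and each library left out. Leaving out the 4 doubted libraries and summing members with their copies were chosen after seeing the data. Members below 0 in BCAA20 against BCAA100 ranged from 39 to 72 over the alternatives, in BCAA50 from 50 to 74 and in BCAA200 from 46 to 76. The shares of all genes below 0 under the alternatives are not given here. The lowest member counts are those of the fit without the 4 doubted libraries, where BCAA100 male replicate 4 is the only BCAA100 male. Leaving out each library in turn, the large subunit median in BCAA200 against BCAA100 ranged from -0.14 to -0.057. Summing members with their copies turned the direction of 5 values, none past the threshold: Rpl30 to 0.024 in BCAA200 against BCAA20, to 0.0014 in BCAA50 against BCAA20 and to 0.0076 for the slope, Rpl37 to 0.00244 in BCAA50 against BCAA20, and Rps28 to 0.056 in BCAA200 against BCAA50.

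Same-numbered libraries of different diets had a mean correlation of 0.016 between -0.29 and 0.27, and 7 of 24 libraries correlated best with their own number, so the numbers do not pair them. With the replicate block the count of members called in BCAA200 against BCAA20 was 0. The large subunit median of 0.0063 could not move, since every diet holds each replicate number once, so it is no check. Sex could not be fitted beside the block, since numbers are nested in sex. Depth is unknown, and low members such as Rps29 carry the largest counting error.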

Other observations

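The diet varied leucine, isoleucine and valine, and the coding sequences of members were compared with those of other genes for these amino acids. BCAA codons made up a median of 19.9% of the codons of the 80 coding members, between 4.0% in Rpl41 and 27.1% in Rpl9, and a median of 20.6% over the 11446 coding genes whose mean reached 1 FPKM. Lysine and arginine codons made up a median of 21.99% in members and of 11.4% in coding genes. The median coding length was 453 bases in members and 1386 bases in coding genes. Rpl37, 1 of the members with the lowest p-values in BCAA50 against BCAA20, had 6.19% BCAA codons. Rpl30, Rplp0 and Rps21 were also among those members. Their shares are not given here, so the Rpl37 value stands for that gene only. Whether codon content goes with any diet change was not tested.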
